A study of Homo sapiens with 6 samples.

Results

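The Hippo pathway restrains the transcriptional coactivators YAP and TAZ, and the 35 genes described here are its components and the cofactors of the TEAD transcription factors. They were named by symbol, and each was read from the 1 probe set that carried its symbol alone, out of 18404 genes tested. The cells were HaCaT, a spontaneously immortalised human keratinocyte line. The shTP63 group, 3 samples, carried lentiviral short hairpin RNA against TP63, and the shControl group, also 3 samples, carried a lentiviral control, so both groups were transduced. The hairpin sequences and their number are not given in the sources used here. TP63 encodes p63, a transcription factor of the basal layer of stratified epithelia. RNA was collected after 72 hours and measured on 1 array per sample. The study concerned p63, the chromatin remodelling subunit ACTL6A and their joint control of Hippo-YAP activity in squamous carcinoma.

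In the core of the pathway the kinases STK3 (MST2) and STK4 (MST1) activate LATS1 and LATS2, with the scaffold SAV1 and the coactivators MOB1A and MOB1B. LATS kinases phosphorylate YAP (YAP1) and TAZ (WWTR1), which are then kept out of the nucleus or degraded. Unphosphorylated YAP and TAZ bind TEAD factors on DNA and turn on growth and matrix genes. In epidermis YAP is known to promote the proliferation of basal keratinocytes, and VGLL proteins compete with it or act beside it on the same TEAD factors.

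Levels are log2 of intensities that the authors had normalized by robust multi-array average, and differences are shTP63 minus shControl. Arrays of 1 group correlated at r of 0.996 to 0.998 over all probe sets and arrays of different groups at 0.988 to 0.991. Nothing in the labels says whether the replicates were separate cultures, and the spread behind each p-value is that between these samples, possibly a technical one. TP63 itself was not analysed here, so directions rest on the sample labels. All 8 measured keratinocyte markers lay above background in both groups. Background was set at 6.81, below which 95% of 360 olfactory receptor genes lay. The summed linear intensity of those markers was 50295 to 50959 in shTP63 and 54957 to 57045 in shControl. Single markers went both ways: KRT5 (-0.50), KRT14 (-0.35) and DSG3 (-0.31) fell, LAMB3 (0.33) and ITGB4 (0.21) rose, 3 did not pass, and the median of the 8 was -0.01. Of 8 fibroblast markers 5 were above background, with sums of 1252 to 1335 in shTP63 and 1192 to 1232 in shControl. Of 6 immune and endothelial markers 2 were above background, with sums of 1084 to 1112 in shTP63 and 1036 to 1095 in shControl. Those 2 were CDH5 and CD79A, at mean levels of 9.53 and 7.02 over all arrays. They differed by 0.07 and 0.05, and neither passed. PTPRC, the pan-leukocyte marker and the dimmest of the 6, averaged 4.27 in shTP63 and 4.31 in shControl, both below background. The part of these marker shifts in the results was not tested. Since the arrays measured whole cultures, fewer cells of a kind and less RNA per cell cannot be told apart.

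Among the 35 genes, 5 rose and 14 fell in shTP63 (limma, adjusted p under 0.05), and 16 did not pass. WWC1 (KIBRA), AMOT, FAT1, FAT4 and TEAD2 rose. The falls included the 3 VGLL members (VGLL1, VGLL3 and VGLL4), both coactivators, TEAD4, the STK3 kinase, both MOB1 genes and TAOK3. No member changed by 2-fold, and the differences ranged from -0.94 for VGLL1 to 0.54 for WWC1. Over all genes 41.5% passed, 16.4% as rises and 25.1% as falls, against 14.3% and 40% of these genes. In 25 of the 35 genes the groups did not overlap, against 51.4% of all genes. That was 6 higher in shTP63, against 20.9% of all genes, and 19 lower, against 30.4%.

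The share of falls has to be read against brightness. When all genes were ordered by mean level and divided into 5 equal bins, 29 of the 35 genes lay in the 2 brightest. There 43.5% of all genes fell, against 48.3% of these members, and 21.9% of all genes rose, against 10.3%. The median difference was -0.10 in each of those bins and -0.01 over the 18404 genes tested, against -0.12 for the 35 genes. The share of falls among the members was therefore near that of bright genes in general. The 26 genes upstream of the coactivators had a median difference of -0.04, with 4 rises and 8 falls. The 9 coactivators, TEAD factors and VGLL cofactors had a median of -0.26, with 1 rise and 6 falls. In none of these 9 did the groups overlap, where 51.4% of all genes had groups without overlap. That share was not computed for the bright bins, so the 9 are not read as set apart by it.

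**Figure D1:**
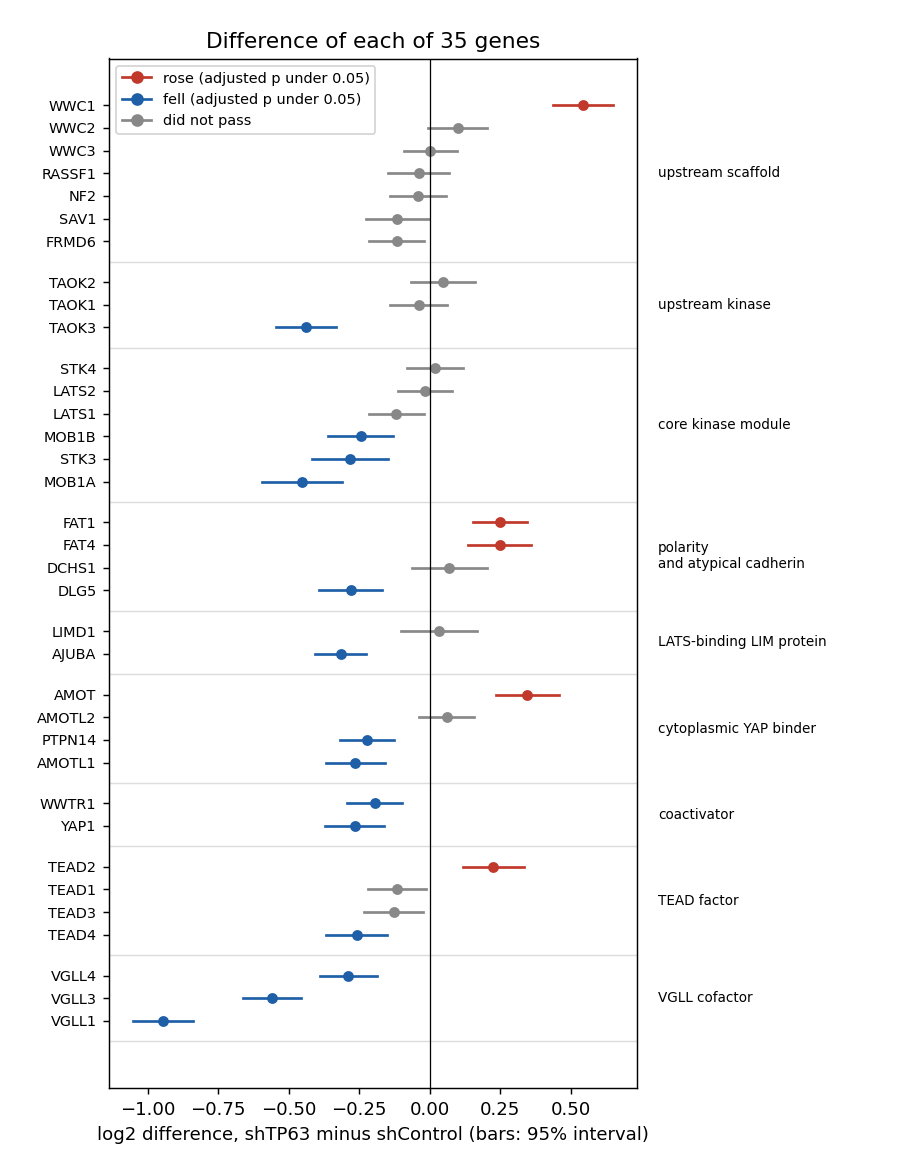
Log2 difference, shTP63 minus shControl, of each of 35 genes grouped by role, with 95% intervals from limma; red genes rose, blue genes fell and grey genes did not pass. VGLL1 stands lowest at -0.94 and WWC1 highest at 0.54.

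**Figure D2:**
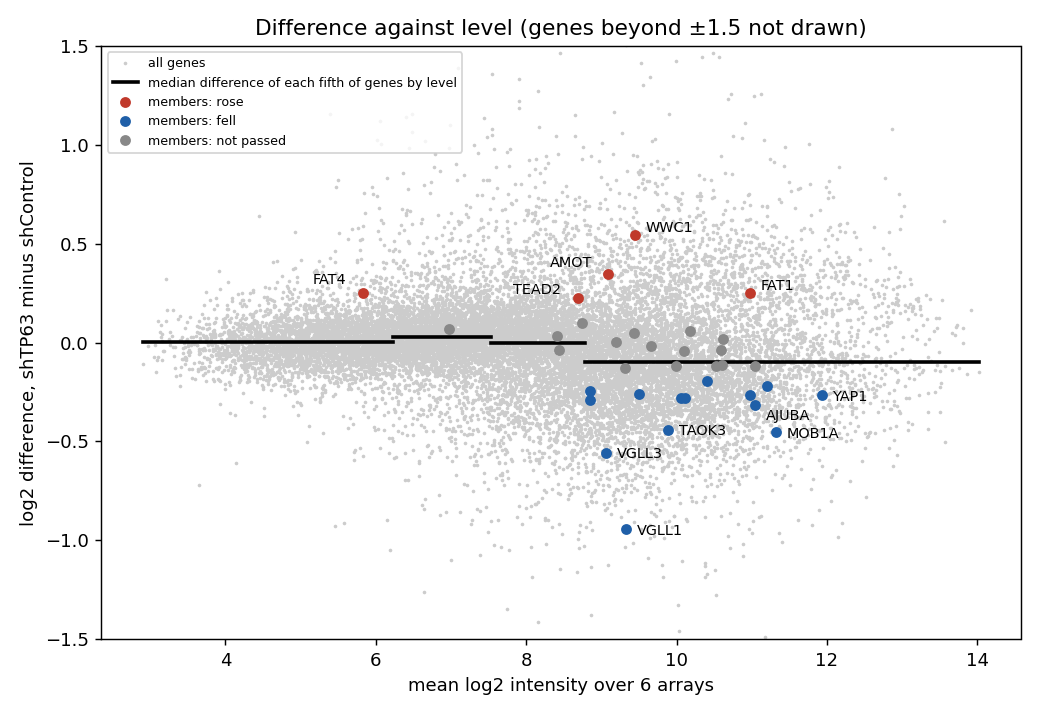
Log2 difference against mean log2 intensity for all genes (grey) and the 35 members (coloured by call), with black bars at the median difference of each of 5 equal bins of genes by level. Most members sit at bright levels, where the median of all genes was -0.10, and VGLL1, VGLL3, WWC1 and AMOT stand away from it.

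All 3 VGLL cofactors fell. VGLL1 is a vestigial-like protein that binds TEAD factors through the same surface as YAP and is expressed in epithelia. Its levels were 8.82, 8.88 and 8.85 in shTP63, against 9.86, 9.76 and 9.76 in shControl. The groups lay far apart with little spread within either. VGLL1 (probe set 8170179) fell by 0.94 log2 units (SE 0.0471, limma adjusted p = 2.14e-06), a 1.92-fold decrease, and ranked 58 from the lowest difference among all genes. Its fall ranged from 0.87 to 1.05 over all 15 alternative settings and kept its call in each.

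VGLL3, a related TEAD partner, stood at 8.77, 8.75 and 8.83 in shTP63, against 9.39, 9.33 and 9.31 in shControl. It fell by 0.56 (SE 0.0450, limma adjusted p = 2.28e-05), with every shTP63 array below every shControl array. VGLL4 is known as an antagonist that competes with YAP for TEAD. Its arrays read 8.67, 8.70 and 8.74 in shTP63, against 9.03, 8.95 and 8.995 in shControl, again without overlap. VGLL4 fell by 0.29 (SE 0.0441, limma adjusted p = 0.000720). Thus a cofactor known to oppose YAP fell along with VGLL1 and VGLL3, by less than either.

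Within an array the ratio of 2 genes does not move with a shift common to the whole array, so pairs of related genes were also compared as log2 ratios. A shift that differs with level stays in such a ratio. The median difference of all genes was -0.10 in the 2 brightest bins and -0.0004 in the bin below them. Pairs such as TEAD2 to TEAD4, WWC1 to WWC2 and AJUBA to LIMD1 span these bins. The VGLL1 to VGLL4 ratio was lower in shTP63 by 0.66, at 0.15 ± 0.030 against 0.80 ± 0.033 in shControl (SD, n = 3 each). For VGLL1 to VGLL3 the change was -0.39, and for VGLL3 to VGLL4 it was -0.27. In all 3 pairs the groups did not overlap. With 3 arrays a group the exact two-sided permutation test used for these ratios cannot give a p below 0.1, which 20 of the 24 pairs tested reached, and 0.12 was the smallest p after adjustment over the 24 pairs. No ratio change can pass a threshold of 0.05 by that test, so the ratio changes are given as sizes.

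The TEAD factors, which carry the DNA-binding domain of the complex, moved in different directions. TEAD4 had 9.32, 9.39 and 9.42 in shTP63, against 9.60, 9.62 and 9.68 in shControl. It fell by 0.26 (SE 0.0476, limma adjusted p = 0.00208). TEAD2 was higher on every shTP63 array, with 8.76, 8.82 and 8.84, against 8.60, 8.52 and 8.62 in shControl. TEAD2 rose by 0.23 (SE 0.0471, limma adjusted p = 0.00417), a call lost when arrays were centred on their median (difference 0.12, adjusted p = 0.0612).

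TEAD1 and TEAD3 had differences of -0.12 and -0.13 and did not pass (limma adjusted p = 0.0680 and 0.0506). For both, the 3 shTP63 arrays lay below the 3 shControl arrays. Without shTP63 replicate 3 both passed, at limma adjusted p = 0.0435 for TEAD1 and 0.0438 for TEAD3. The TEAD2 to TEAD4 ratio was higher in shTP63 by 0.48, at -0.57 ± 0.015 against -1.05 ± 0.056 in shControl (SD, n = 3 each). TEAD1 to TEAD3 changed by 0.01, with overlapping groups. TEAD2 was thus the member of the family that was higher in shTP63, and the other 3 had differences below 0.

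TEAD factors recognise the letters GGAATG, so the promoters of the members were read for them. RefSeq windows from 250 bases before to 50 after the start (GRCh38.p14) were held for 28 of the 35 genes. GGAATG on either strand was found in 9 of the 28 (32.1%), against 16.7% of 27305 genes, and in 21.4% of the members' windows, against 14.0% of all windows. Of the 9 genes 5 fell and 4 did not pass, and of the 19 without a match 4 rose, 6 fell and 9 did not pass. Over all genes 25.1% fell, and 43.5% in the 2 brightest bins, and these small counts were not tested against each other. Because several of these genes are themselves widely used readouts of YAP, the matches are shown with 10 bases on either side. They are read on the gene's strand, with the TEAD letters or their reverse complement (CATTCC) in capitals:
AJUBA, chr14:22976886-22976911, minus strand: gaagttggctGGAATGaagccaaagc
AMOTL2, chr3:134374501-134374526, minus strand: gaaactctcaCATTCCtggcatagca
LATS2, chr13:21061562-21061587, minus strand: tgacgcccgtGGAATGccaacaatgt
PTPN14, chr1:214551787-214551812, minus strand: tcccgggccgCATTCCtccccgcccc
RASSF1, chr3:50337521-50337546, minus strand: gcgatgaggtCATTCCtgggggcgaa
TAOK3, chr12:118190754-118190779, minus strand: atccttccagGGAATGctattttttc
VGLL1, chrX:136532048-136532073, plus strand: ccatgttcctCATTCCtgcaggtgcc
WWC2, chr4:183099025-183099050, plus strand: gttaagctcaGGAATGcggcgcgagg
YAP1, chr11:102110275-102110300, plus strand: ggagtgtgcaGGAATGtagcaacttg

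WWC2 held the letters a second time 14 bases further on. A match describes letters and not a bound site. Distances are counted from the start on which the matching window was built. The LATS2 match began 9 bases past that start. The other 8 genes had theirs upstream of it, at distances from 59 bases (AJUBA) to 234 bases (TAOK3). AJUBA, AMOTL2 and TAOK3 also had a window from a different start, further upstream, and that window held no match.

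The promoters of the gene that fell most and the gene that rose most are set side by side. Capitals mark the TEAD letters or their reverse complement. The 250 bases before the start of VGLL1 (chrX:136531965-136532214, plus strand) held those letters once, and the full window was 45.7% G and C. Those of WWC1 (chr5:168291395-168291644, plus strand) held none, and the full window was 72.7% G and C, against a median of 58.7% for all windows:
VGLL1: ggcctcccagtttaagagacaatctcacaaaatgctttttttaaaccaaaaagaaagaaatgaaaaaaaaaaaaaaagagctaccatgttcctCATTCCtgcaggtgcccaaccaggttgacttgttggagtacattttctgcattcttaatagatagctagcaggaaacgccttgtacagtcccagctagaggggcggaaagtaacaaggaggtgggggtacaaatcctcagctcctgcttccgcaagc
WWC1: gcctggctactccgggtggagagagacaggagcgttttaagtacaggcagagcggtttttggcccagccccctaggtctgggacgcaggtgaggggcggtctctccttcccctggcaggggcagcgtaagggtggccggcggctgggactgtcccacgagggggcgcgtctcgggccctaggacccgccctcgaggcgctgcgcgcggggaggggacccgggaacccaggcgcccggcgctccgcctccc

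A strict p53-family core, a pair of CATG with 6 bases of any kind between, was in none of the 28 members' windows and in those of 0.472% of all genes. The looser form, a pair of CNNG at the same spacing, was in 27 of 28, against 76.3% of all genes, where members' windows had a median G and C content of 67.7%. The AP-1 letters TGANTCA were found in LATS1 and MOB1B alone among the members, against 9.37% of all genes. All of these were searched on both strands.

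Both coactivators were lower in shTP63. They lay in the brightest bin, where the median difference of all genes was -0.10. YAP1 read 11.83, 11.83 and 11.73 in shTP63, against 12.10, 12.05 and 12.05 in shControl. It fell by 0.27 (SE 0.0467, limma adjusted p = 0.00158). WWTR1 averaged 10.30 ± 0.027 in shTP63 and 10.50 ± 0.034 in shControl (SD, n = 3 each). WWTR1 fell by 0.20 (SE 0.0428, limma adjusted p = 0.00535), but did not pass after cyclic loess normalization (difference -0.12, adjusted p = 0.0548) or when quantile normalization used 1-gene probe sets (difference -0.11, adjusted p = 0.0765). The YAP1 to WWTR1 ratio differed by -0.07 between the groups, with 1 of the 3 shTP63 arrays, at 1.40, clearly below the others at 1.55 and 1.53 and the shControl arrays at 1.56, 1.56 and 1.57.

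**Figure D3:**
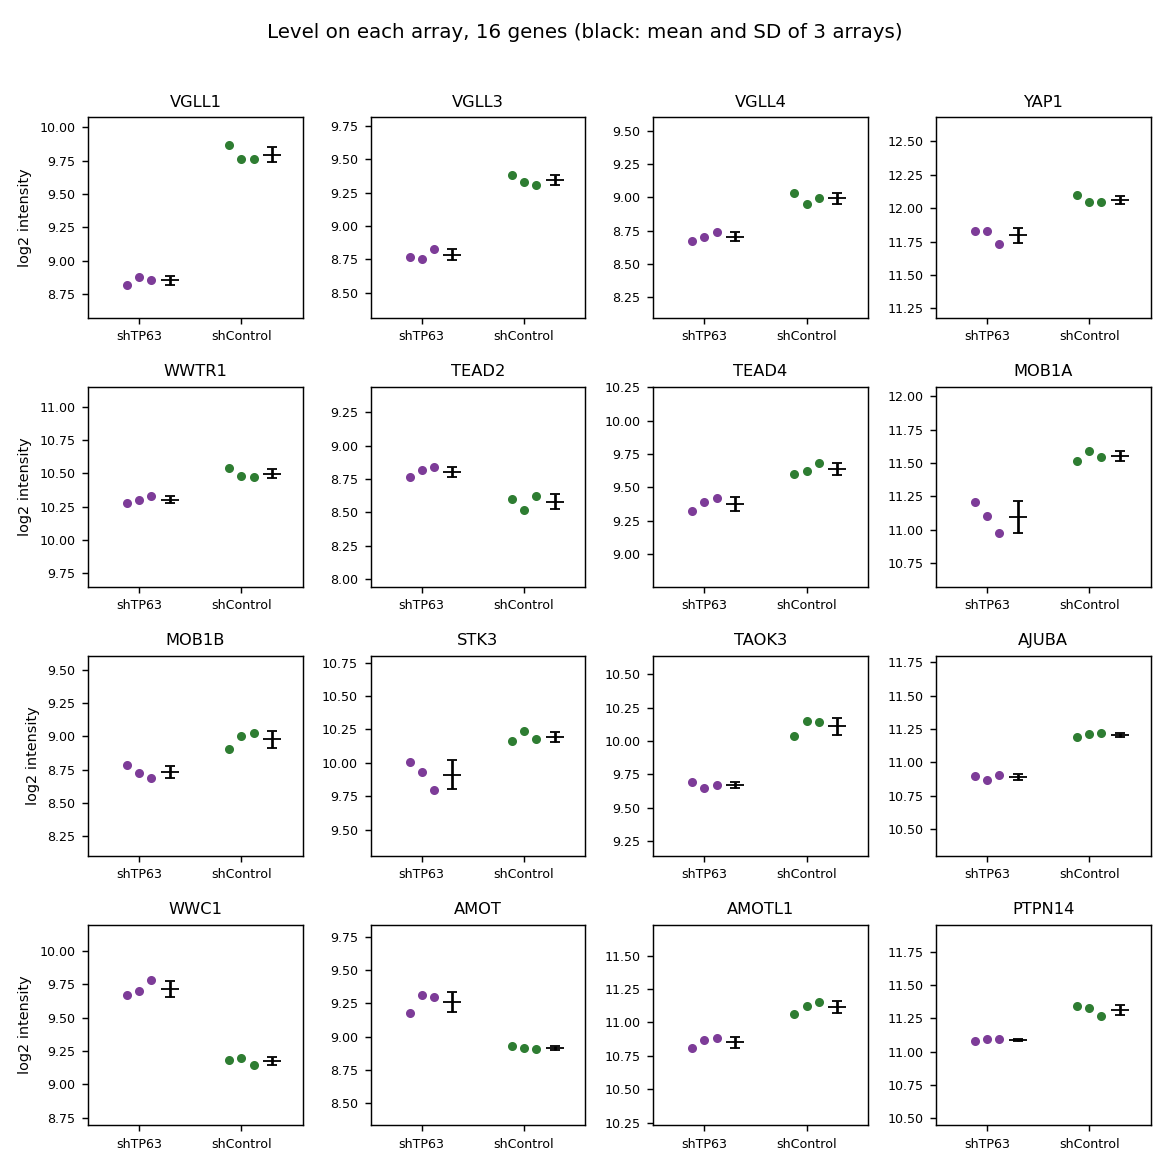
Log2 intensity on each array for 16 genes, shTP63 (purple) left of shControl (green), with the mean and SD of 3 arrays in black; every panel spans the same number of log2 units. In each panel the arrays of the 2 groups are separate, with WWC1, AMOT and TEAD2 higher in shTP63.

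Among the proteins that hold YAP in the cytoplasm, AMOT and its relative AMOTL1 moved apart. AMOT, the motin angiomotin, binds YAP at junctions and the actin cytoskeleton. It read 9.18, 9.32 and 9.30 in shTP63, against 8.93, 8.91 and 8.91 in shControl. AMOT rose by 0.35 (SE 0.0494, limma adjusted p = 0.000484). AMOTL1 had 10.81, 10.87 and 10.88 in shTP63, against 11.06, 11.13 and 11.15 in shControl. It fell by 0.26 (SE 0.0457, limma adjusted p = 0.00149), so neither gene's groups overlapped and the signs were opposite.

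The AMOT to AMOTL1 ratio was higher in shTP63 by 0.61, at -1.59 ± 0.041 against -2.20 ± 0.059 in shControl (SD, n = 3 each). AMOTL2 lay between its relatives, with a difference of 0.06 (95% interval -0.04 to 0.16), and did not pass on the deposited scale (limma adjusted p = 0.314). It passed as higher after cyclic loess (difference 0.13) and when quantile normalization used 1-gene probe sets (difference 0.14). PTPN14, a tyrosine phosphatase that binds YAP, read 11.08, 11.09 and 11.10 in shTP63, against 11.34, 11.33 and 11.27 in shControl. PTPN14 fell by 0.22 (SE 0.0421, limma adjusted p = 0.00249), where the median difference of all genes in its bin was -0.10.

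In the core kinase module, counted here without the scaffold SAV1, no gene rose, 3 of 6 fell and 3 did not pass. All 6 lay in the 2 brightest bins, where 43.5% of all genes fell, against 25.1% over all genes. Nothing about the module as a whole is read from that count. MOB1A, a coactivator of the LATS kinases, read 11.21, 11.10 and 10.98 in shTP63, against 11.52, 11.59 and 11.55 in shControl. Its shTP63 arrays had the widest spread of all 35 genes (SD 0.118) and still lay wholly below shControl. MOB1A fell by 0.45 (SE 0.0622, limma adjusted p = 0.000386). Its paralog MOB1B had 8.78, 8.73 and 8.69 in shTP63, against 8.90, 9.004 and 9.03 in shControl, and fell by 0.25 (SE 0.0503, limma adjusted p = 0.00376).

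STK3, the MST2 kinase, had 10.01, 9.93 and 9.80 in shTP63, against 10.17, 10.24 and 10.18 in shControl. It fell by 0.28 (SE 0.0591, limma adjusted p = 0.00417). Its paralog STK4 averaged 10.63 ± 0.047 in shTP63 and 10.61 ± 0.013 in shControl (SD, n = 3 each), a difference of 0.02 with a 95% interval of -0.08 to 0.12. The STK3 to STK4 ratio was lower in shTP63 by 0.30, with no overlap between the groups. The lowest shTP63 value of STK3, MOB1A, MOB1B and YAP1 came from the same array, replicate 3, as it did for 7 of the 35 genes. For 19 of the 35 replicate 3 gave the highest shTP63 value. The same counts were not made over all genes, so nothing about the members is read from them.

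Neither LATS kinase passed. LATS1 averaged 9.93 ± 0.016 in shTP63 and 10.05 ± 0.042 in shControl (SD, n = 3 each), a difference of -0.12 that did not pass (limma adjusted p = 0.0526). LATS2 averaged 9.65 ± 0.041 in shTP63 and 9.67 ± 0.009 in shControl, with a 95% interval of the difference of -0.11 to 0.08. The groups overlapped for LATS2 and did not for LATS1.

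Upstream of the core, WWC1 was the scaffold that changed. WWC1 (KIBRA) links the NF2 protein merlin to the LATS kinases. It read 9.67, 9.70 and 9.78 in shTP63, against 9.18, 9.20 and 9.14 in shControl. WWC1 (probe set 8109773) rose by 0.54 (SE 0.0470, limma adjusted p = 3.29e-05), or 1.46-fold, and kept its call under all 15 alternatives at 0.44 to 0.63. Its paralogs differed less. WWC2 averaged 8.80 ± 0.038 in shTP63 and 8.70 ± 0.053 in shControl, and WWC3 averaged 9.19 ± 0.023 in shTP63 and 9.19 ± 0.020 in shControl (SD, n = 3 each).

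Neither paralog passed (limma adjusted p = 0.127 for WWC2 and 0.975 for WWC3). The WWC2 groups did not overlap, with shTP63 higher by 0.10, and WWC2 passed as a rise when quantile normalization used 1-gene probe sets (difference 0.16, limma adjusted p = 0.0172). The WWC1 to WWC3 ratio was higher in shTP63 by 0.54, at 0.53 ± 0.042 against -0.02 ± 0.045 in shControl (SD, n = 3 each). The ratio of WWC1 to WWC2 was higher by 0.44, also without overlap. The other scaffolds did not pass. FRMD6, a relative of the fly protein Expanded, differed by -0.12, NF2 by -0.04 and RASSF1, an MST-binding protein, by -0.04. SAV1, the scaffold of the core kinases, is listed with them and differed by -0.11. Of these, FRMD6 and SAV1 had groups that did not overlap, with shTP63 lower.

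TAOK kinases phosphorylate the MST kinases. TAOK3 read 9.69, 9.64 and 9.67 in shTP63, against 10.04, 10.15 and 10.14 in shControl. It fell by 0.44 (SE 0.0471, limma adjusted p = 0.000102), whereas TAOK1 and TAOK2 differed by -0.04 and 0.05 with overlapping groups. The TAOK1 to TAOK3 ratio was higher in shTP63 by 0.40 and the TAOK2 to TAOK3 ratio by 0.49. TAOK3 was therefore set apart from both relatives in the same arrays.

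AJUBA and LIMD1 are LIM proteins that bind LATS kinases at junctions and restrain them. AJUBA had 10.90, 10.87 and 10.91 in shTP63, against 11.19, 11.21 and 11.22 in shControl, among the tightest groups of the set. AJUBA fell by 0.32 (SE 0.0405, limma adjusted p = 0.000268). LIMD1 averaged 8.43 ± 0.108 in shTP63 and 8.40 ± 0.042 in shControl (SD, n = 3 each) and did not pass (limma adjusted p = 0.706). The AJUBA to LIMD1 ratio was lower in shTP63 by 0.35.

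FAT1 and FAT4 are giant cadherins that signal to the pathway, DCHS1 is the ligand of FAT4, and DLG5 is a polarity scaffold. FAT1 read 11.06, 11.13 and 11.10 in shTP63, against 10.83, 10.85 and 10.86 in shControl. It rose by 0.25 (SE 0.0419, limma adjusted p = 0.00123). FAT4 rose by the same amount, 0.25 (SE 0.0491, limma adjusted p = 0.00304), with 5.92, 5.96 and 5.98 in shTP63, against 5.63, 5.77 and 5.71 in shControl. Both FAT4 groups lay below the background of 6.81, so the size of its change is uncertain. DCHS1, at 7.003 ± 0.042 in shTP63 and 6.93 ± 0.105 in shControl (SD, n = 3 each), did not pass (limma adjusted p = 0.393). DLG5 went the other way from FAT1, with 9.91, 9.97 and 10.06 in shTP63, against 10.24, 10.26 and 10.27 in shControl. DLG5 fell by 0.28 (SE 0.0494, limma adjusted p = 0.00165).

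**Figure D4:**
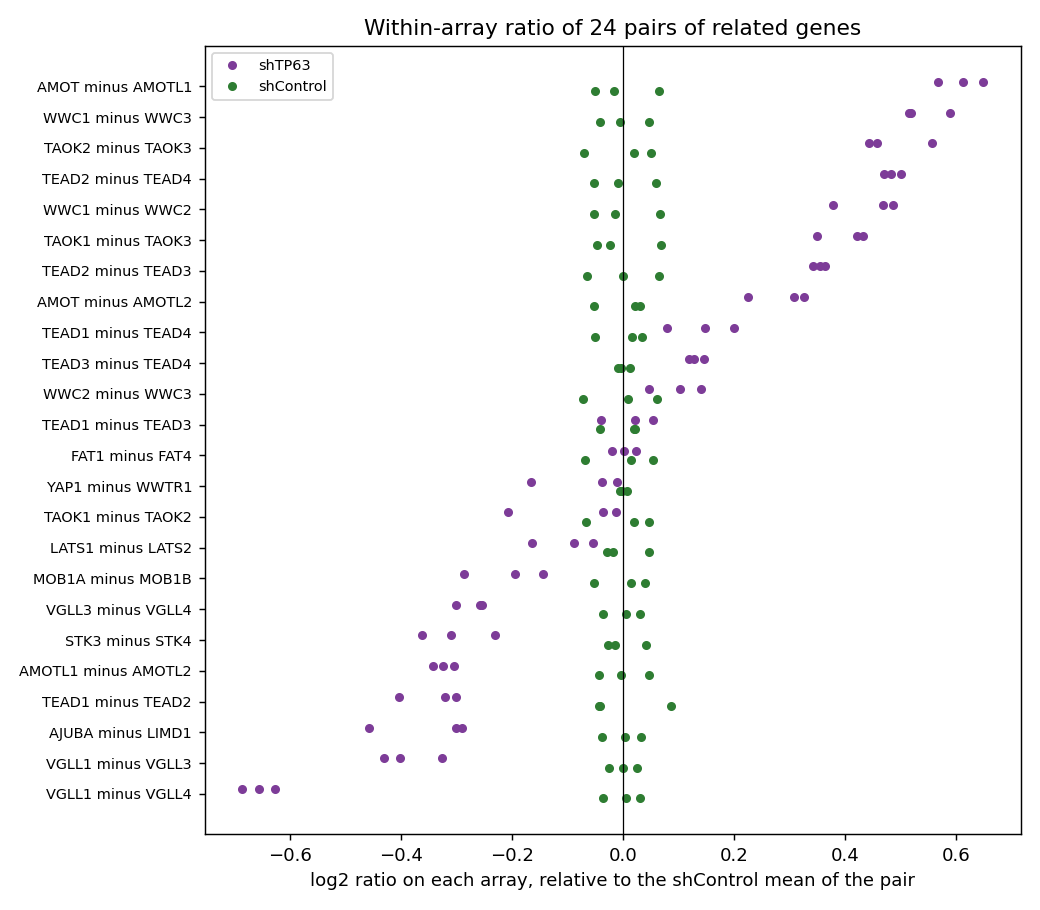
Log2 ratio of 24 pairs of related genes on each array, drawn relative to the shControl mean of the pair, with shTP63 in purple above shControl in green. In 20 pairs the groups did not overlap, from -0.66 for VGLL1 to VGLL4 up to 0.61 for AMOT to AMOTL1.

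Across the 24 pairs the groups were separate in 20. Single genes had separate groups in 51.4% of all genes and 71.4% of the members, and no share was computed for pairs of other genes, so nothing is read from the count. The 4 with overlap were WWC2 to WWC3, TEAD1 to TEAD3, TAOK1 to TAOK2, and FAT1 to FAT4. The last has no readable size, because FAT4 lay below background in both groups. MOB1A to MOB1B was lower in shTP63 by 0.21 and LATS1 to LATS2 by 0.10. These pairs share genes with one another, so the count does not rest on 24 independent comparisons.

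Other genes of the pathway, from 5 lists of general knowledge, were read from the same arrays. Of 66 measured genes 9 rose (13.6%) and 30 fell (45.5%), and their median lay at -0.13. Over all genes 16.4% rose and 25.1% fell, and in the 2 brightest bins 21.9% rose and 43.5% fell. The share of falls in these lists was thus near that of bright genes, and the counts for each list below are to be read against the same shares. After centring on the array median 4 rose and 39 fell, after cyclic loess 14 rose and 20 fell, and with quantile normalization of the 1-gene probe sets 14 rose and 25 fell. In the STRIPAK complex, a phosphatase assembly that keeps MST kinases off, 1 of 17 rose and 9 fell. SIKE1 fell by 0.60 (SE 0.0588), the kinase STK26 by 0.58 (SE 0.0403) and STK24 by 0.41 (SE 0.0482), with limma adjusted p of 6.11e-05, 1.14e-05 and 0.000174.

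Of 23 YAP and LATS modulators 2 rose and 14 fell. BTRC, a subunit of the ubiquitin ligase that degrades YAP, fell by 0.81 (SE 0.0452, limma adjusted p = 3.72e-06). SFN, the epithelial 14-3-3 protein of a family that retains phosphorylated YAP, fell by 0.60 (SE 0.0422) and RASSF5 by 0.57 (SE 0.0464), with limma adjusted p of 1.19e-05 and 2.33e-05. Among 7 MAP4K and NDR kinases 1 rose and 2 fell: MAP4K4 rose by 0.25 (SE 0.0504), while MINK1 fell by 0.19 (SE 0.0491) and STK38 by 0.17 (SE 0.0477). Limma adjusted p for these was 0.00311, 0.0115 and 0.0192.

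Of 14 polarity and junction scaffolds 3 rose and 5 fell. PATJ rose by 0.32 (SE 0.0511) and E-cadherin, CDH1, by 0.29 (SE 0.0420), while PARD3 fell by 0.33 (SE 0.0440), with limma adjusted p of 0.000942, 0.000500 and 0.000310. Of 5 further genes of the atypical cadherin axis FAT3 rose by 0.37 (SE 0.0511) and FJX1 by 0.18 (SE 0.0446), with limma adjusted p of 0.000393 and 0.0113, and the other 3 did not pass.

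AMOTL2, LATS2 and PTPN14 are also in a widely used list of YAP/TAZ target genes. Their differences were 0.06, -0.02 and -0.22, and all 3 carried the TEAD letters shown above. Of the other 19 genes of that list 11 rose (57.9%) and 3 fell (15.8%), against 16.4% and 25.1% of all genes and 21.9% and 43.5% in the 2 brightest bins. Examples were TGFB2 (0.89, SE 0.0396) and AXL (0.85, SE 0.0504) among the rises and CCDC80, which fell by 0.96 (SE 0.0430), with limma adjusted p of 1.14e-06, 5.04e-06 and 1.14e-06. Of the 3 members in the list PTPN14 passed, as a fall.

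**Figure D5:**
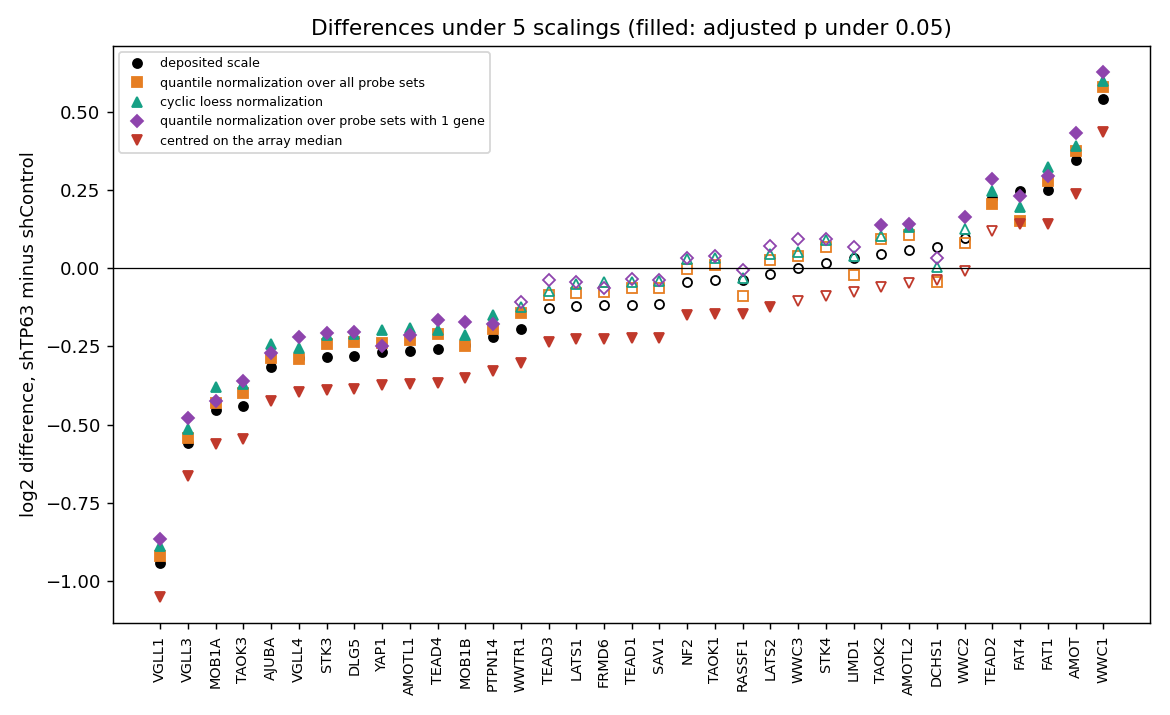
Log2 difference, shTP63 minus shControl, of each of 35 genes on the deposited scale and under 4 other scalings, with filled marks where adjusted p was under 0.05. The genes with the largest differences keep their sign and call, while genes near 0 shift with the scaling.

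Scaling moved the balance of calls. On the deposited scale 5 members rose and 14 fell. With arrays centred on their median over all probe sets 4 rose and 23 fell. The median of the genes tested then lay at -0.12 in place of -0.01. With quantile normalization of the 1-gene probe sets 8 rose and 13 fell. Of the 19 called members 17 kept their call and direction under every alternative in which they were tested, and WWTR1 and TEAD2 were the exceptions. Of the 16 members that did not pass, 12 passed under at least 1 alternative. LATS1, FRMD6, SAV1, TEAD1 and TEAD3 passed as falls after centring, with the dimmest 40% of genes left out and with a trended robust prior, so their calls depend on the setting. LATS2 passed as a fall after centring (difference -0.12) and had a positive difference after the other 3 scalings.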

How the data were processed

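The series holds 6 arrays of HaCaT cells, 3 shTP63 and 3 shControl, grouped and numbered by the sample titles. Per the submitters' processing notes, the authors made the values with RMA in R 2.15.1, and the deposited values are intensities on a linear scale, of which log2 was taken here. RMA includes quantile normalization, but the array medians over all probe sets still ran from 7.44 to 7.57 in log2. A shift common to a whole array can therefore remain in these values. Per the labels, cDNA was primed with oligo-dT. No other filter is given in the sources used here. The platform annotation gave 19158 of 32321 probe sets 1 gene, and probe sets with several genes or none were left out. Each of 18404 genes was read from its brightest probe set by mean log2 value, and every member had 1. The symbols of all 35 members matched RefSeq by Entrez identifier.

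limma 3.58.1 under R 4.3.3 tested shTP63 against shControl (two-sided, lmFit with eBayes), adjusted by Benjamini-Hochberg over all genes at 0.05. Related pairs were compared with exact permutation tests. The steps were tested on simulated data in which 200 genes were changed and the arrays had no common shift. Such data do not test the effect of scaling, or a change as wide as the 41.5% of genes called here. The number of arrays limits the precision, with a median within-group SD of 0.0650. Members that passed are named with their values, those changed by at least 0.2 with all 6 arrays, and the others with their difference, and up to 3 genes per further list are named by adjusted p. Members and lists were chosen with earlier results of these data known. Other settings tried were 4 scalings, the replicate number as a block, leaving out the dimmest 40% of genes, averaged probe sets, a trended robust prior, array weights, a threshold of 0.01, and each array left out. Promoter sequences came from RefSeq, GRCh38.p14.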

Additional observations from a re-analysis of the deposited data

How the results depend on the processing

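The number of members called was 19 with the replicate number as a block, as without it (the block changed the call of no member), and 19 to 21 with 1 array left out, 19 to 27 over all alternatives. Over all genes the block gave 7165 calls, against 7634 without it, and 6483 to 7290 were called with 1 array left out. Same-numbered arrays correlated at -0.15, -0.037 and 0.125 in their deviations from the group means. Differently numbered arrays correlated at -0.143 to 0.164. With 3 arrays a group such values cannot settle whether the numbers paired the samples. For the 66 other pathway genes the block gave 36 calls, against 39, and leaving out 1 array gave 29 to 38. Ratios of 20 to 21 of the 24 pairs were without overlap when 1 array was left out. Falls made up 60.5% of all calls on the deposited scale, 81.7% after centring, 69.0% after quantile normalization over all probe sets and 52.8% with the 1-gene probe sets alone. For members those shares were 73.7%, 85.2%, 73.7% and 61.9%.

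Sign changes were confined to 10 members that did not pass on the deposited scale and, among ratios, to 2 pairs with overlapping groups. Centring on the array median gave -0.0087 for WWC2, -0.11 for WWC3, -0.061 for TAOK2, -0.089 for STK4, -0.038 for DCHS1, -0.074 for LIMD1 and -0.048 for AMOTL2. Quantile normalization of all probe sets gave 0.010 for TAOK1, 0.027 for LATS2, -0.044 for DCHS1 and -0.020 for LIMD1. Cyclic loess gave 0.028 for NF2, 0.034 for TAOK1 and 0.047 for LATS2. Quantile normalization of the 1-gene probe sets gave 0.033 for NF2, 0.038 for TAOK1 and 0.071 for LATS2. With 1 array left out WWC3 lay between -0.0092 and 0.015, LIMD1 between -0.029 and 0.069, the change of the FAT1 to FAT4 ratio (FAT4 being below background, with no readable size) between -0.033 and 0.029, and that of TEAD1 to TEAD3 between -0.0094 and 0.037. The cause was not tested. FAT4 and DCHS1 were left out by the filter on dim genes.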
